A study of Mus musculus with 30 samples.

Results

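The 9 genes described here were grouped as tip cell and apelin pathway genes: Apln, Aplnr, Esm1, Unc5b, Plvap, Robo4, Egfl7, Kcne3 and Cd93. The grouping is a label, since tip cells were not sorted apart from other endothelial cells. They were chosen by name and found through their Entrez IDs as 9 of the 14118 genes of the count matrix. Bulk RNA-seq covers 30 libraries: each of 5 mammary tumours was sorted into 6 populations. The tumours, numbered 5, 6, 8, 10 and 11, grew in mice of the strain FVB/N-Tg(MMTVPyVT)634Mul/J, in which the mammary tumour virus promoter drives the polyoma middle T oncogene, and were taken at 750 mm3. All 6 populations carry this transgene, and no library comes from a normal gland. Endothelial cells were gated as CD45- CD31+. Cancer-associated fibroblasts, gated as CD45- CD31- CD90+, were split into CAF1 (CD34-) and CAF2 (CD34+). Tumour-associated macrophages, gated as CD45+ F4/80+, were split into CD206+ MHCII_low (here CD206hi), CD206+ MHCII_high (here CD206pos) and CD206- MHCII_low (here CD206neg) cells. For tumours 6 and 8 the column name of the CD206neg library says MHC class II high where the sample label says low. The labels were followed, and comparisons between macrophage groups are also given without these 2 libraries where that changes them. Comparisons of endothelial cells with macrophages were not rerun without both.

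When a vessel sprouts, a tip cell leads with filopodia and stalk cells follow, under control of vascular endothelial growth factor and Notch signalling. Apelin, the peptide made from Apln, is secreted by sprouting endothelial cells and acts through the G protein-coupled receptor Aplnr on endothelium. Esm1 (endocan) and Egfl7 are secreted by endothelial cells, Unc5b and Robo4 are receptors of the netrin and roundabout families, Plvap forms the diaphragms of fenestrae and caveolae, Cd93 is a C-type lectin-like transmembrane protein, and Kcne3 is an accessory subunit of potassium channels.

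Promoters are shown for 4 of the genes whose endothelial level stood far above every other population. They are the 250 bases before the RefSeq start, on build GRCm38.p6, which is the assembly of mm10, with GGAAG and its reverse complement CTTCC, the core of sites for ETS factors, in capitals. ETS factors are widely used by endothelial genes.
Apln, chrX:48034854-48035103, minus strand: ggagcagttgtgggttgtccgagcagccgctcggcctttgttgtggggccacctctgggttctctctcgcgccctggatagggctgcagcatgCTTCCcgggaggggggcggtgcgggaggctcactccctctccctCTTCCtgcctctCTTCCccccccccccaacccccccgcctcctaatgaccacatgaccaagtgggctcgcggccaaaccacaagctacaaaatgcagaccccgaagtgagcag
Robo4, chr9:37401722-37401971, plus strand: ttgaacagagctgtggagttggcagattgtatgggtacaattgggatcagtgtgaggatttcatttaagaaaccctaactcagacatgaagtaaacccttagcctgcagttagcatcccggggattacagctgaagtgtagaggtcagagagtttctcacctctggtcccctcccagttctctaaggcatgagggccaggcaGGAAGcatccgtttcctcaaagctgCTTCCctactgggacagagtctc
Egfl7, chr2:26580833-26581082, plus strand: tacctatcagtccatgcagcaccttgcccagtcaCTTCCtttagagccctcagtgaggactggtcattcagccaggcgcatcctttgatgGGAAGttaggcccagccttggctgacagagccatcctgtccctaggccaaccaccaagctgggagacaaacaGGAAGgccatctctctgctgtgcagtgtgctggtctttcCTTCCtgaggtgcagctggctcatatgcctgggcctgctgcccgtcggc
Esm1, chr13:113209409-113209658, plus strand: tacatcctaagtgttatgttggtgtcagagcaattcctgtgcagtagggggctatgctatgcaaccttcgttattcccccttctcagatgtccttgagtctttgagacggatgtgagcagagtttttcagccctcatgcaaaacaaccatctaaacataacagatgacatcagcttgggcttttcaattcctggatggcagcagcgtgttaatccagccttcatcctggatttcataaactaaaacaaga
RefSeq promoters were matched for 6 of the 9 genes, in 9 windows. GGAAG on either strand stood in 6 of the 9 windows, of Apln, Robo4, Egfl7 and Kcne3, against 64.1% of all 32851 RefSeq promoters of the same length, and in none of those of Esm1 and Unc5b. The 3 windows of Egfl7 held 4, 2 and 0 matches, and the first is shown. The Robo4 window precedes a start that lies inside the RefSeq span of the gene given with its values, and both of its matches lie inside that span. The SOX core ACAAAG stood in 2 windows, of Apln and Egfl7, against 16.5% of all promoters, and the hypoxia element core ACGTG in 1 window of Kcne3, against 16.6%. The GATA core AGATAA (9.99% of all promoters), the E-box CACGTG (6.02%) and the forkhead core GTAAACA (3.17%) matched none of the 9 windows. ACGTG is contained in the E-box CACGTG. The matches describe these windows and do not show binding.

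The Egfl7 gene (Entrez 353156, chr2:26581083-26592682) also hosts microRNA 126a, an endothelial microRNA that polyadenylated RNA-seq does not measure in its mature form. The mature strand is shown because its host transcript was among the most abundant members, with the seed, bases 2 to 8, in capitals.
mmu-miR-126a-3p, chr2:26591402-26591423, plus strand: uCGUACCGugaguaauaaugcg

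Every member was high in the endothelial libraries, and 8 of the 9, all but Unc5b, were higher in each of the 5 endothelial libraries than in any of the 25 other libraries. Of 7591 genes with at least 10 CPM (read counts scaled to library size) in the endothelial libraries, 7.32% had that pattern. Endothelial cells held 99.9% of the summed group means of Robo4, 99.3% of those of Egfl7 and of Esm1, 99.2% of Kcne3, 98.5% of Plvap, 95.7% of Aplnr, 95.4% of Apln, 63.5% of Cd93 and 49.2% of Unc5b. Levels throughout are CPM scaled by TMM, a factor per library that aligns the bulk of genes, and values of a group are in the order of tumours 5, 6, 8, 10 and 11. In a bulk sample, fewer cells of a type and less RNA per cell cannot be told apart.

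**Figure D1:**
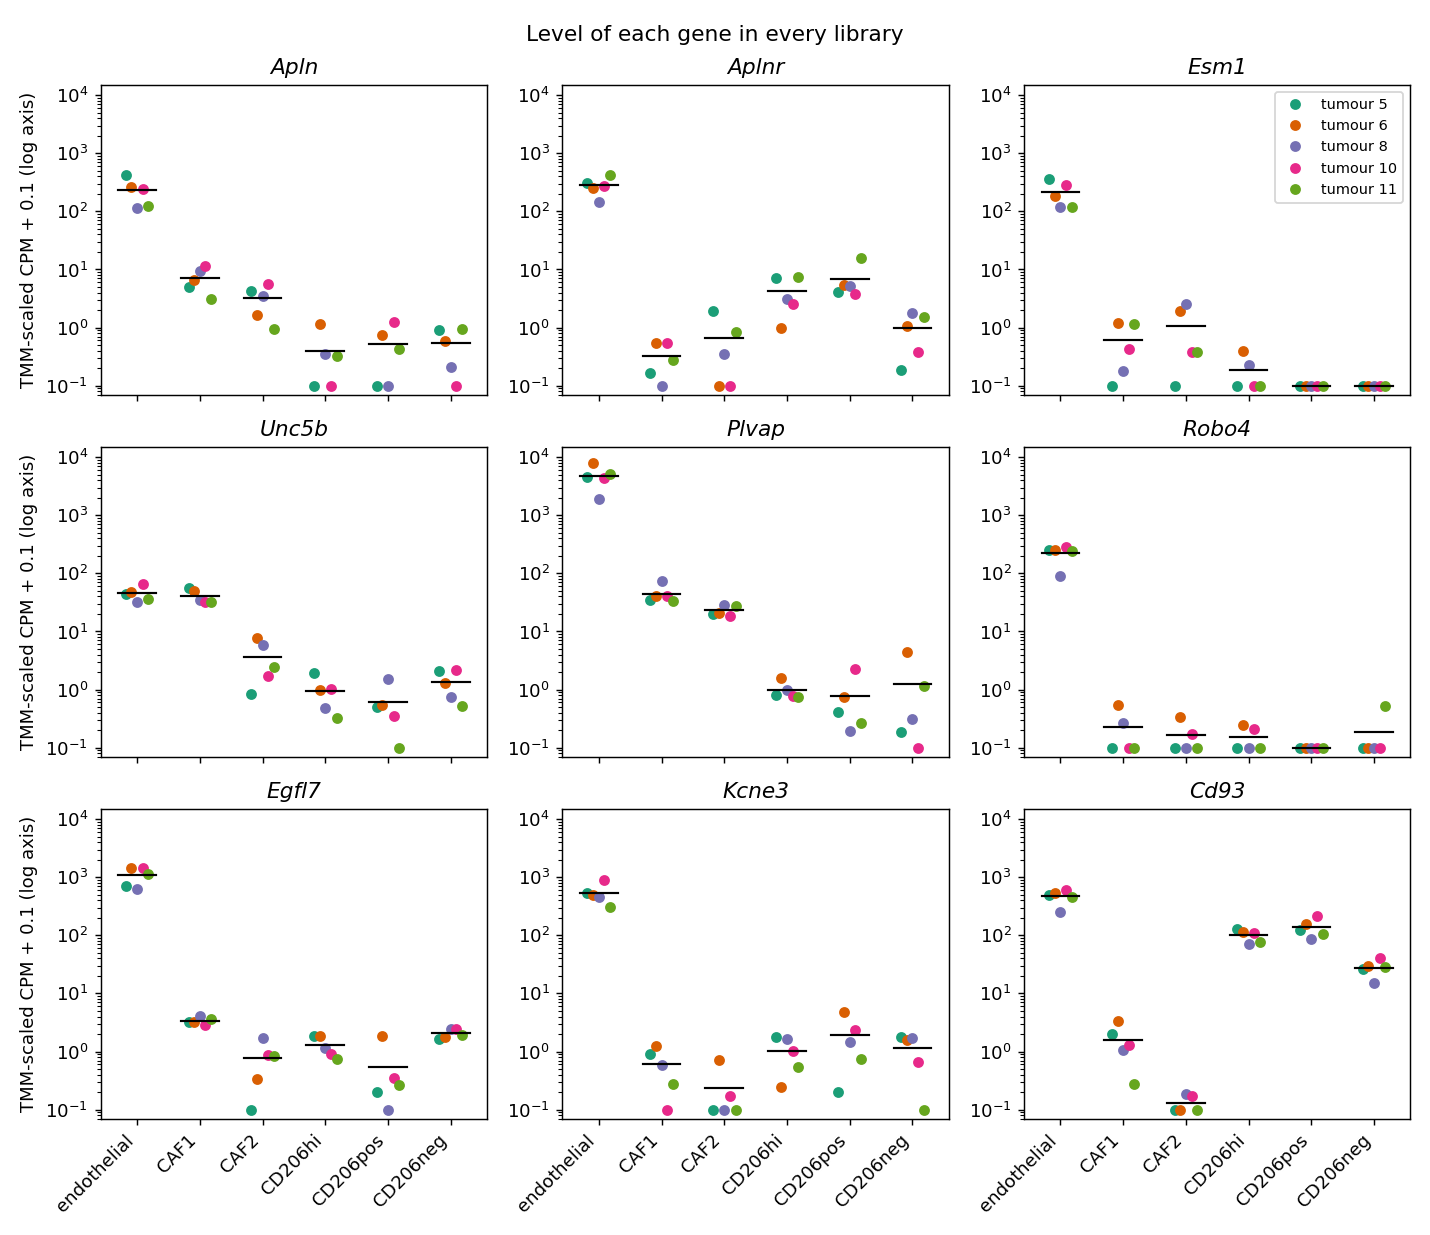
TMM-scaled CPM plus 0.1, on a log axis, of each gene in the 6 sorted populations; each point is 1 library coloured by tumour, and the bar is the mean of 5 libraries. Points at 0.1 are libraries with no count. Unc5b is as high in CAF1 as in endothelial cells, and Cd93 is the only member above 15.8 CPM in any macrophage library.

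Over 13610 genes, tested by the quasi-likelihood F test of edgeR and adjusted by Benjamini-Hochberg, 8 of the 9 members were higher in endothelial cells than in CAF1 and none lower, where 15.9% of genes were called higher and 18.8% lower. All 9 were higher than in CAF2 (23.7% of genes higher, 22.3% lower) and all 9 higher than in the mean of the 3 macrophage groups (36.5% higher, 24.7% lower). Their median log2 fold changes were 8.34, 8.87 and 9.34, beside medians over all genes of -0.0045, 0.0498 and 0.169. The comparisons share the 5 endothelial libraries. All 9 passed the filter on low counts, but Esm1 and Robo4 would not have passed without the endothelial libraries, so these counts are a description. Without the endothelial library of tumour 8, which stood apart as described below, 8, 9 and 9 members were called.

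**Figure D2:**
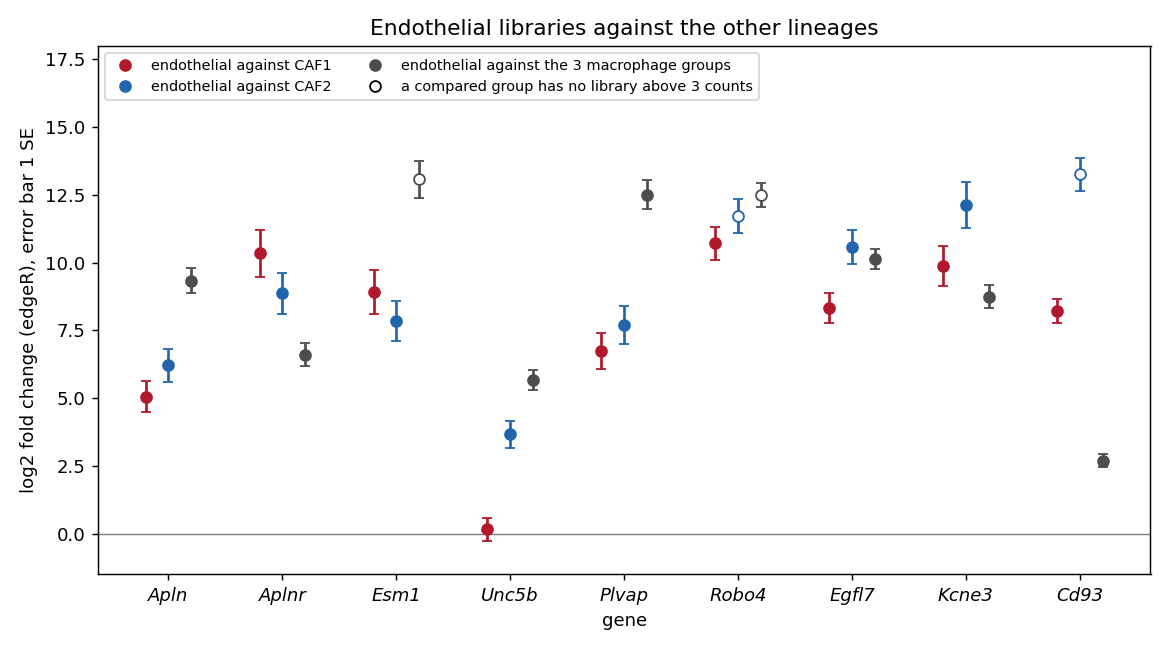
Log2 fold change of each gene in endothelial cells against CAF1, CAF2 and the mean of the 3 macrophage groups, with 1 SE (edgeR, n = 5 libraries per population). Open points mark genes for which a compared group has no library above 3 counts, so that the fitted value depends on the prior count. The point of Unc5b against CAF1 lies at 0.16, and that of Cd93 against macrophages, 2.68, is the lowest of the 9 against macrophages.

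Apln (Entrez 30878, chrX:48025146-48034853), the apelin precursor, had 424, 266, 112, 245 and 122 CPM in endothelial cells, against 4.83, 6.39, 9.14, 11.4 and 3.01 CPM in CAF1. CAF2 had 0.833 to 5.42 CPM and the macrophage libraries 0 to 1.12 CPM. The endothelial libraries, highest in tumour 5, overlap no other group. The log2 fold change was 5.05 ± 0.57 (SE) against CAF1 (edgeR adjusted p = 3.82e-08), 6.21 ± 0.61 against CAF2 and 9.34 ± 0.47 against macrophages.

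Aplnr (Entrez 23796, chr2:85136360-85139923), the apelin receptor, had 308, 250, 144, 270 and 428 CPM in endothelial cells, against 0 to 0.449 CPM in CAF1 and 0 to 1.85 CPM in CAF2. Ligand and receptor RNA were thus both in the endothelial gate, at group means of 234 ± 127 and 280 ± 103 CPM (SD, n = 5). Per kilobase of exon their mean levels were 74.2 and 75.7 CPM. The receptor was lowest in tumour 8, like the ligand, but highest in tumour 11, where Apln had the second lowest value of the 5. Outside endothelium Aplnr was next highest in macrophages, at 0.883 to 7.44 CPM in CD206hi, 3.62 to 15.8 CPM in CD206pos and 0.0890 to 1.71 CPM in CD206neg libraries. The log2 fold change in endothelial cells was 6.61 ± 0.43 against the 3 macrophage groups (edgeR adjusted p = 3.89e-14), 10.34 ± 0.85 against CAF1 and 8.87 ± 0.76 against CAF2 (10.07 without the CAF2 library of tumour 5).

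Esm1 (Entrez 71690, chr13:113209659-113218104), a secreted proteoglycan used as a tip cell marker, had 358, 185, 118, 289 and 120 CPM in endothelial cells, against 0 to 1.12 CPM in CAF1 and 0 to 2.43 CPM in CAF2. No read was counted in the 10 CD206pos and CD206neg libraries, and 3 reads were counted in the 5 CD206hi libraries. With a floor of 3 counts over the 5 libraries of a group, the endothelial mean was at least 2788-fold higher than CD206pos and at least 2624-fold higher than CD206neg. Against CAF1 the log2 fold change was 8.93 ± 0.81 (SE), and against CAF2 7.84 ± 0.74, given without a test because Esm1 passed the filter on low counts only through the endothelial libraries. Without tumour 6 the value against CAF1 was 9.71, without tumour 5 it was 8.17, and without tumour 8 the value against CAF2 was 8.80.

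Egfl7, an angiogenic protein bound to the extracellular matrix, had 701, 1449, 639, 1458 and 1131 CPM in endothelial cells. It had 2.75 to 4.0 CPM in CAF1, 0 to 1.60 CPM in CAF2 and 0 to 2.37 CPM in macrophages. Its endothelial values fell into a lower pair, tumours 5 and 8, and 3 higher libraries. Against CAF1 the log2 fold change was 8.34 ± 0.55 (edgeR adjusted p = 1.82e-12), 10.58 ± 0.62 against CAF2 (11.28 without tumour 8) and 10.15 ± 0.37 against macrophages. Egfl7 overlaps Gm20532 on its own strand and, at its end, Agpat2 on the other, and the strand setting of the counting is not given in the sources used here.

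Unc5b (Entrez 107449, chr10:60762594-60831581), a netrin receptor of tip cells, had 43.7, 47.2, 32.0, 66.4 and 36.6 CPM in endothelial cells, against 55.2, 49.5, 34.4, 31.6 and 31.7 CPM in CAF1. These groups overlap, and the endothelial library was the higher of the pair in 2 of 5 tumours. The log2 fold change was 0.16 ± 0.43 with a 95% interval of -0.73 to 1.04 (edgeR adjusted p = 0.826, range over alternatives 0.69 to 0.983). CAF2 had 0.724, 7.64, 5.71, 1.64 and 2.31 CPM, below every endothelial and CAF1 library, and the macrophage libraries had 0 to 2.09 CPM. The log2 fold change in endothelial cells was 3.67 ± 0.49 against CAF2 (adjusted p = 4.75e-07) and 5.66 ± 0.37 against macrophages. Leaving out tumour 10 turned the endothelial against CAF1 value to -0.10, and leaving out its endothelial library alone to -0.02.

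Robo4 (Entrez 74144, chr9:37401902-37414023), the roundabout receptor of endothelium, had 255, 248, 88.2, 280 and 241 CPM in endothelial cells. It had 0 to 0.449 CPM in every other library, from 6 reads in all CAF1 libraries, 3 in CAF2, 2 in CD206hi, none in CD206pos and 2 in CD206neg. The endothelial mean was at least 2895-fold higher than CD206pos by the 3-count floor, and 4256 times CAF2, with a counting interval of 1456 to 20639. Robo4 had the narrowest spread of the members once tumour 8 was left out, from 241 to 280 CPM.

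Plvap (Entrez 84094, chr8:71497753-71511806) was the most abundant member, with 4483, 7886, 1871, 4338 and 5091 CPM in endothelial cells. CAF1 had 34.3, 40.5, 73.1, 41.0 and 32.8 CPM, CAF2 18.6 to 28.0 CPM and macrophages 0 to 4.36 CPM. Per kilobase of exon, the endothelial mean of 2382 CPM was several times that of Kcne3 (302) and Egfl7 (300.4), which were followed by Esm1 (102), Aplnr (75.7), Apln (74.2), Cd93 (69.9), Robo4 (42.0) and Unc5b (7.22). Its log2 fold change was 6.74 ± 0.67 against CAF1 (edgeR adjusted p = 4.18e-09), 7.69 ± 0.70 against CAF2 and 12.51 ± 0.52 against macrophages. Plvap overlaps Gtpbp3 on the opposite strand, a gene with 2126 counts in all 30 libraries.

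Kcne3 (Entrez 57442, chr7:100176507-100184869), which modulates potassium channels such as Kcnq1, had 534, 504, 455, 879 and 311 CPM in endothelial cells, against 0 to 4.78 CPM in all 25 other libraries. It was the only member whose lowest endothelial library was not that of tumour 8. Its log2 fold change was 9.88 ± 0.75 against CAF1 (edgeR adjusted p = 2.19e-11), 12.12 ± 0.85 against CAF2 (13.98 without the CAF2 library of tumour 6, where the others are at 3 counts or fewer and the fitted value depends on the prior count) and 8.74 ± 0.43 against macrophages.

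Cd93 (Entrez 17064, chr2:148436651-148443535), which binds the matrix proteins Mmrn2 and Igfbp7 and is known in endothelial and myeloid cells, had 497, 530, 248, 593 and 465 CPM in endothelial cells. It was also present in every macrophage library, at 70.1 to 129 CPM in CD206hi, 86.1 to 217 CPM in CD206pos and 15.3 to 40.0 CPM in CD206neg. CAF1 had 0.177 to 3.25 CPM, and CAF2 had 2 reads over 5 libraries. The log2 fold change in endothelial cells was 1.75 ± 0.33 against CD206pos (edgeR adjusted p = 4.87e-05), 2.22 ± 0.34 against CD206hi, 4.07 ± 0.37 against CD206neg and 8.22 ± 0.45 against CAF1.

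Among the 5 endothelial libraries, 8 of the 9 members were lowest in tumour 8, all but Kcne3. Of genes of at least 10 CPM in these libraries, 36.1% were lowest there, and so were all 10 genes of a pan-endothelial list (Pecam1, Cdh5, Tie1, Tek, Erg, Emcn, Cldn5, Esam, Eng, Sox18). The summed list had 4787, 5063, 1701, 4575 and 4928 CPM, lowest in tumour 8. The same library had the highest sums of the endothelial gate for 8 pericyte genes, 1184 CPM against 82.5 to 672 CPM, and for 5 fibroblast genes, 379 CPM against 33.1 to 324 CPM. Sums of 6 epithelial genes were 149 to 1855 CPM, lowest in tumour 10, and those of 5 macrophage genes 3.02 to 11.7 CPM. No gene of these lists was at or below 3 counts in all 5 libraries.

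Over all 5 endothelial libraries, the members varied more between tumours than the typical gene, and so did the pan-endothelial genes. The median SD of log2 CPM over the 5 endothelial libraries was 0.571 for the members and 0.328 for 7579 genes of at least 10 CPM. Over the 10 pan-endothelial genes it ran from 0.516 (Erg) to 1.16 (Eng), so this spread is not particular to the members. After each library's value was divided by its pan-endothelial sum, the median SD was 0.526 for the members and 0.701 for all genes, and none of the 9 was lowest in tumour 8. The divisor is itself lowest in tumour 8, so division raised every gene there beside the other tumours, and these 2 results follow in part from it. After division, 4 members (Unc5b, Egfl7, Kcne3 and Cd93) were highest in tumour 8. Robo4 then had an SD of 0.133, and its level was 5.33, 4.90, 5.19, 6.12 and 4.88% of the pan-endothelial sum. Apln kept an SD of 0.683, at 8.85, 5.25, 6.60, 5.35 and 2.47% of the sum. Esm1 kept an SD of 0.697, at 7.48, 3.66, 6.94, 6.33 and 2.44%. Apln and Esm1 were both highest in tumour 5 and lowest in tumour 11 on this scale. Of 24 other genes of the tip programme, 6 had that order, among them Dll4, the Notch ligand of tip cells, and 12 were highest in tumour 8. Of the 10 pan-endothelial genes, whose sum is the divisor, 0 had that order and 3 were highest in tumour 8. The share of all genes with that order was not computed, so the 6 genes are a description, and a shared programme was not tested. Aplnr ran otherwise, highest in tumour 11 at 8.69%, and Kcne3 was highest in tumour 8 at 26.7% and lowest in tumour 11 at 6.31%. With 1 endothelial library per tumour, these differences have no replicate within a tumour and were not tested.

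**Figure D3:**
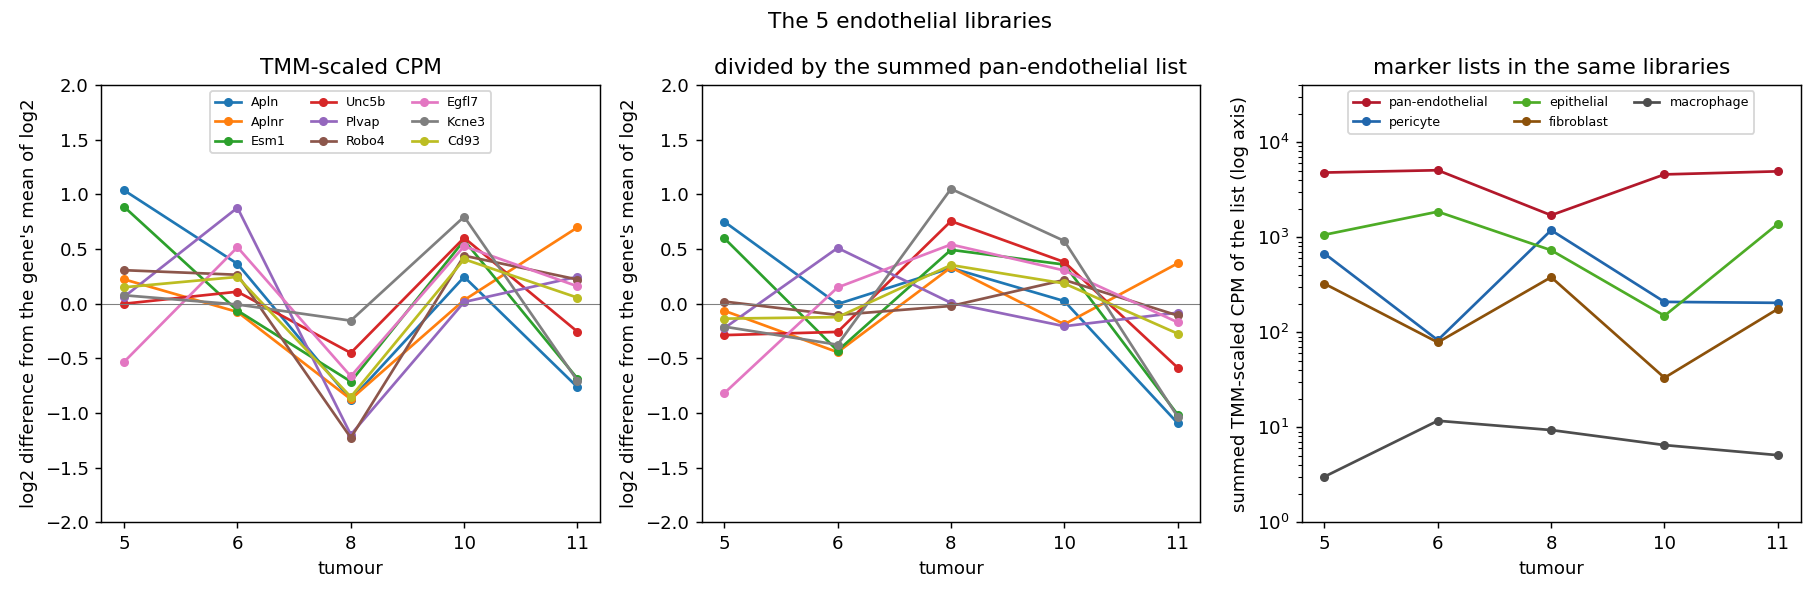
Left and middle, log2 level of each gene in the 5 endothelial libraries minus its mean of log2 values, as TMM-scaled CPM and after division by the summed pan-endothelial list; right, summed TMM-scaled CPM of 5 marker lists in the same libraries on a log axis. In tumour 8 the pan-endothelial sum is lowest, at 1701 CPM, and the pericyte sum highest, at 1184 CPM; 8 of the 9 genes are lowest there in the left panel and none in the middle one.

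In fibroblasts, Unc5b had the largest difference of the 4 members that passed the filter on low counts, higher in CAF1 than in CAF2 by a log2 fold change of 3.54 ± 0.49 (edgeR adjusted p = 0.000316 over 12149 genes). Of these 4, 3 were higher in CAF1 than in CAF2 (Unc5b, Egfl7 and Plvap), where 10.9% of genes were called higher and 8.59% lower. Plvap had a log2 fold change of 0.97 ± 0.23 (adjusted p = 0.00996) without overlap between the groups. Egfl7 had 2.28 ± 0.65 (adjusted p = 0.0275), at 3.13, 3.14, 4.0, 2.75 and 3.54 CPM in CAF1 against 0, 0.242, 1.60, 0.785 and 0.741 CPM in CAF2. Apln was higher in CAF1 in 5 of 5 tumours, by 1.18 ± 0.48, and did not pass the test (adjusted p = 0.113), but did with tumour as a block (0.0293). The call of Plvap was lost in the fit of all 30 libraries, at a log2 fold change of 0.95 (adjusted p = 0.263; range over alternatives 0.000957 to 0.263). That of Egfl7 was lost without the CAF1 library of tumour 6, 8 or 11, without the CAF2 library of tumour 6, 10 or 11 (0.0507 to 0.0631), or without all libraries of tumour 6, 10 or 11 (0.0707 to 0.101; range over alternatives 0.00152 to 0.101). Where its call was lost the log2 fold change was 2.09 to 2.39, and without the CAF2 library of tumour 8 it was 2.86.

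CAF1 also differed from CAF2 in pericyte genes, of which 8 of 8 were higher in CAF1, with summed levels of 1869, 2065, 2303, 799 and 1012 CPM in CAF1 and 150 to 212 CPM in CAF2. The fibroblast list stood at 16046 to 152732 CPM in CAF1 and 25223 to 44034 CPM in CAF2, and the epithelial list at 237 to 2744 CPM and 1.77 to 438 CPM. The part of these cell types in the CAF1 values was not tested. Cd93, which did not pass the filter there, had 81 reads in CAF1 and 2 in CAF2, at 0.177 to 3.25 CPM and 0 to 0.0840 CPM. As percent of the endothelial mean, the CAF1 mean was 89.7% for Unc5b, 2.98% for Apln, 0.936% for Plvap and 0.308% for Egfl7. Among the pan-endothelial genes it was 0.0332% for Pecam1, 0.0669% for Cdh5 and 0.0183% for Cldn5, but 5.13% for Esam, 3.89% for Tek and 2.78% for Erg. Over all 10 it ran from 0.0183% to 10.3% (Eng), with a median of 1.05%.

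In macrophages, Cd93 and Aplnr were called higher in the CD206 positive groups than in CD206neg cells. The calls of Aplnr, unlike those of Cd93, were lost in some alternatives, given below. Cd93 had 122, 159, 86.1, 217 and 107 CPM in CD206pos and 129, 115, 70.1, 109 and 77.9 CPM in CD206hi, against 26, 29.3, 15.3, 40.0 and 28.5 CPM in CD206neg. Neither positive group overlaps CD206neg. Cd93 had a log2 fold change of 2.33 ± 0.29 in CD206pos (edgeR adjusted p = 6.23e-05 over 11052 genes) and 1.86 ± 0.29 in CD206hi (0.000373). Without the CD206neg libraries of tumours 6 and 8 it was 2.10 (0.00155) and 1.64 (0.00819). Of all genes, 8.85% were called higher and 5.85% lower in CD206pos than in CD206neg, and 6.14% higher and 3.90% lower in CD206hi than in CD206neg. Only 4 members passed the filter. The comparisons share the CD206neg libraries.

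Aplnr had 3.99, 5.22, 5.17, 3.62 and 15.8 CPM in CD206pos and 6.98, 0.883, 2.96, 2.49 and 7.44 CPM in CD206hi, against 0.0890, 0.968, 1.71, 0.279 and 1.45 CPM in CD206neg. CD206pos lies above CD206neg in all libraries, while CD206hi overlaps it through its library of tumour 6. Against CD206neg the log2 fold change was 2.91 ± 0.69 in CD206pos (edgeR adjusted p = 0.00866) and 2.22 ± 0.69 in CD206hi (0.0474). The first call was lost without tumour 11 (0.0546; range over alternatives 0.000183 to 0.0546). The second was lost without the CD206hi library of tumour 5, 8, 10 or 11, without the CD206neg library of tumour 5, 6, 10 or 11 (0.0505 to 0.132), without tumour 5, 6, 10 or 11 as a whole, without the 2 CD206neg libraries of tumours 6 and 8 (0.0731) and with no filter (0.0545; range over alternatives 0.00987 to 0.218). Its log2 fold change was 2.94 without the 2 libraries, 2.18 with no filter, 1.54 without tumour 5 and 2.84 without tumour 8. In CD206pos it was 3.63 without the 2 libraries, 2.56 without tumour 11 and 3.50 without tumour 8.

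Egfl7, at 12 reads in all CD206pos libraries against 72 in CD206neg libraries, was lower in CD206pos by a log2 fold change of -2.34 ± 0.77 (edgeR adjusted p = 0.0487). That call was lost without any of the 5 CD206neg libraries or the CD206pos library of tumour 5, 8, 10 or 11 (0.068 to 0.114), without tumour 5, 8, 10 or 11 as a whole, without the 2 CD206neg libraries of tumours 6 and 8 (0.145), with no filter (0.0735) and with another scaling, RLE (0.0516; range over alternatives 0.00175 to 0.191). Where the call was lost the log2 fold change was -2.43 to -1.87. The CD206pos library of tumour 6 holds 8 of the 12 reads, and without it the value was -3.89. Kcne3 did not pass in CD206pos (0.70 ± 0.83, adjusted p = 0.617) or in CD206hi (-0.16 ± 0.84, 0.951) against CD206neg. Between CD206hi and CD206pos none of the 4 members was called by edgeR, where 0.00905% of genes were called higher and 0.181% lower in CD206hi. At an unadjusted p under 0.05 stood Egfl7, 1.66 ± 0.77 higher in CD206hi (adjusted p = 0.685), and DESeq2 and limma on the authors' values called none of the 4 either.

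Endothelial genes were near 0 in the macrophage libraries. The pan-endothelial list summed to 8.62 to 22.8 CPM in CD206hi, 10.4 to 22.5 CPM in CD206pos and 4.89 to 18.1 CPM in CD206neg. As percent of the endothelial mean, Cd93 stood at 21.5% in CD206hi, 29.7% in CD206pos and 5.96% in CD206neg and Aplnr at 1.48, 2.41 and 0.321%, while the median pan-endothelial gene stood at 0.117, 0.188 and 0.0541%. The highest of the 10 pan-endothelial genes, Eng, stood at 3.32, 3.77 and 1.84%, above Aplnr in each group. Epithelial genes summed to 38.0 to 347 CPM in CD206hi, 25.8 to 461 CPM in CD206pos and 29.2 to 937 CPM in CD206neg, each highest in tumour 6, and their part in the member values was not tested.

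**Figure D4:**
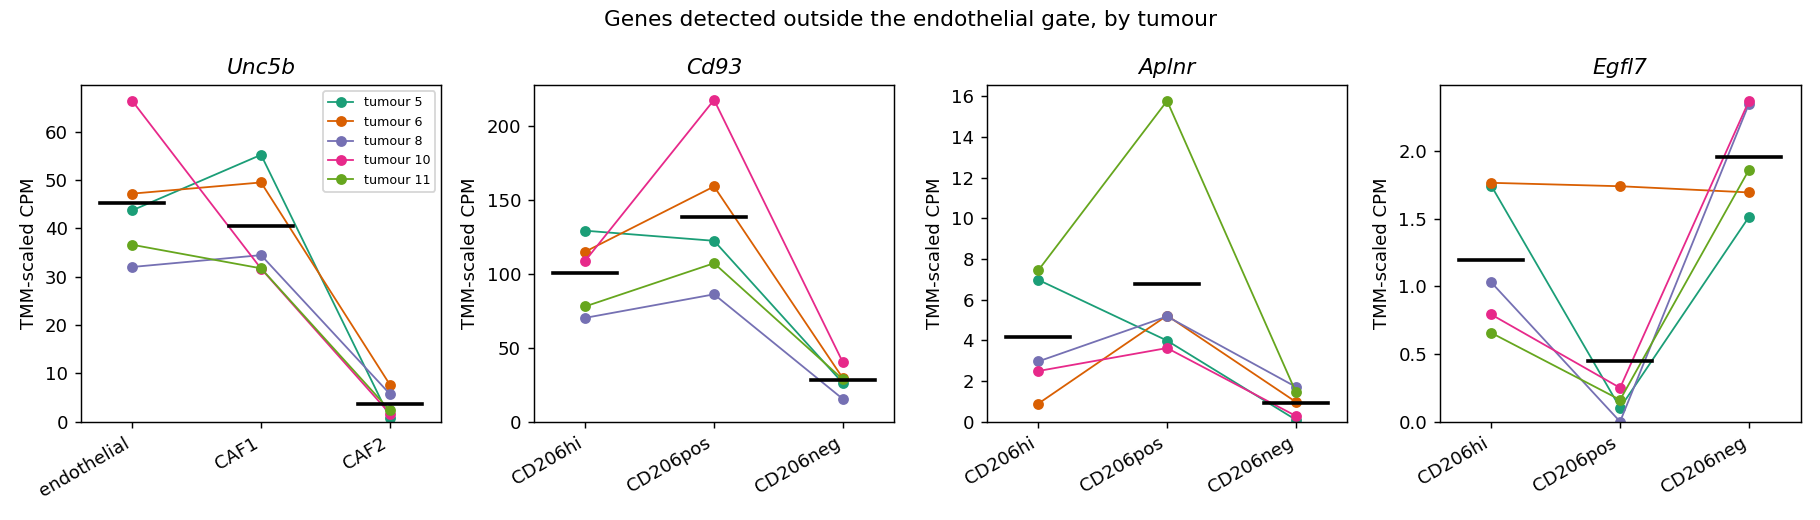
TMM-scaled CPM of Unc5b in endothelial cells, CAF1 and CAF2, and of Cd93, Aplnr and Egfl7 in the 3 macrophage groups; lines join libraries of 1 tumour and black bars are means of 5. All Cd93 values of CD206hi and CD206pos (70.1 to 217 CPM) lie above those of CD206neg (15.3 to 40.0 CPM); Egfl7 stays at or below 2.37 CPM.

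Genes listed as possible partners or processing enzymes of the members were called in both directions, in shares to be read beside those of all genes. The list tested here holds 14 genes and was chosen with earlier results of these data known. That a gene is listed does not show that it binds a member. Mmrn2 passed the filter on low counts in neither the fibroblast nor the macrophage fit, so its calls are a description. Against CAF1, 4 of 14 were higher in endothelial cells (Mmrn2, Kcnq1, Cav1, Cavin1) and 4 lower (Slit2, Slit3, Flrt2, Ntn4), where 15.9% of all genes were called higher and 18.8% lower, with a median log2 fold change of -0.18. Against CAF2, 5 were higher (Robo1, Mmrn2, Igfbp7, Kcnq1, Cav1) and 4 lower (Slit2, Slit3, Flrt2, Ntn4), against 23.7% higher and 22.3% lower of all genes, with a median of 0.10. Against macrophages 12 were higher and 2 lower (Furin and Flrt3), against 36.5% higher and 24.7% lower of all genes, with a median of 5.18. Without the endothelial library of tumour 8, the counts lower were 6 against CAF1 and 5 against CAF2, and 11 were higher than in macrophages.

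Slit2, a roundabout ligand, had 0 to 0.762 CPM in endothelial cells, against 56.5 to 103 CPM in CAF1 and 19.3 to 64.8 CPM in CAF2, with log2 fold changes of -7.99 ± 0.60 (edgeR adjusted p = 1.09e-09) and -7.06 ± 0.59. Slit3 had 0.949 to 5.03 CPM in endothelial cells, against 131 to 428 CPM in CAF1 and 240 to 343 CPM in CAF2. Both Slit genes were highest in the fibroblast groups, and macrophage libraries had at most 0.652 CPM of either. Binding of either to Robo4 was not tested. Flrt2, a ligand of Unc5 receptors, averaged 4.20 ± 1.76 CPM in endothelial cells (SD, n = 5), against 24.8 ± 15.1 CPM in CAF1 and 108 ± 27.7 CPM in CAF2. Ntn4, a netrin, averaged 6.31 ± 3.55, 29.8 ± 12.5 and 65.6 ± 13.1 CPM in the same groups, while Ntn1 averaged 8.28 ± 3.11, 7.36 ± 1.88 and 9.27 ± 3.72 CPM and passed neither test.

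Mmrn2, the matrix ligand of Cd93, had 371, 384, 137, 329 and 313 CPM in endothelial cells and 0 to 1.62 CPM in the 25 other libraries. Kcnq1, the channel subunit that Kcne3 modulates, had 37.1 to 104 CPM in endothelial cells and at most 0.485 CPM in fibroblasts, and 2.83 to 9.18 CPM in 4 of the 5 CD206pos libraries. In CD206hi as in CD206pos, Kcnq1 was called higher than in CD206neg, where no library had more than 3 counts. Mmrn2 and Kcnq1 were highest in endothelial cells, like the members they bind. Furin, the protease that cleaves the apelin precursor, was lower in endothelial cells than in macrophages by a log2 fold change of -2.77 ± 0.34 (edgeR adjusted p = 4.06e-08), at 9.79 to 78.4 CPM in endothelial cells and 162 to 463 CPM in macrophages. Flrt3 averaged 6.46 ± 6.70 CPM in endothelial cells, against 43.0 ± 21.6 CPM in CD206hi, 149 ± 56.8 CPM in CD206pos and 22.6 ± 11.5 CPM in CD206neg.

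**Figure D5:**
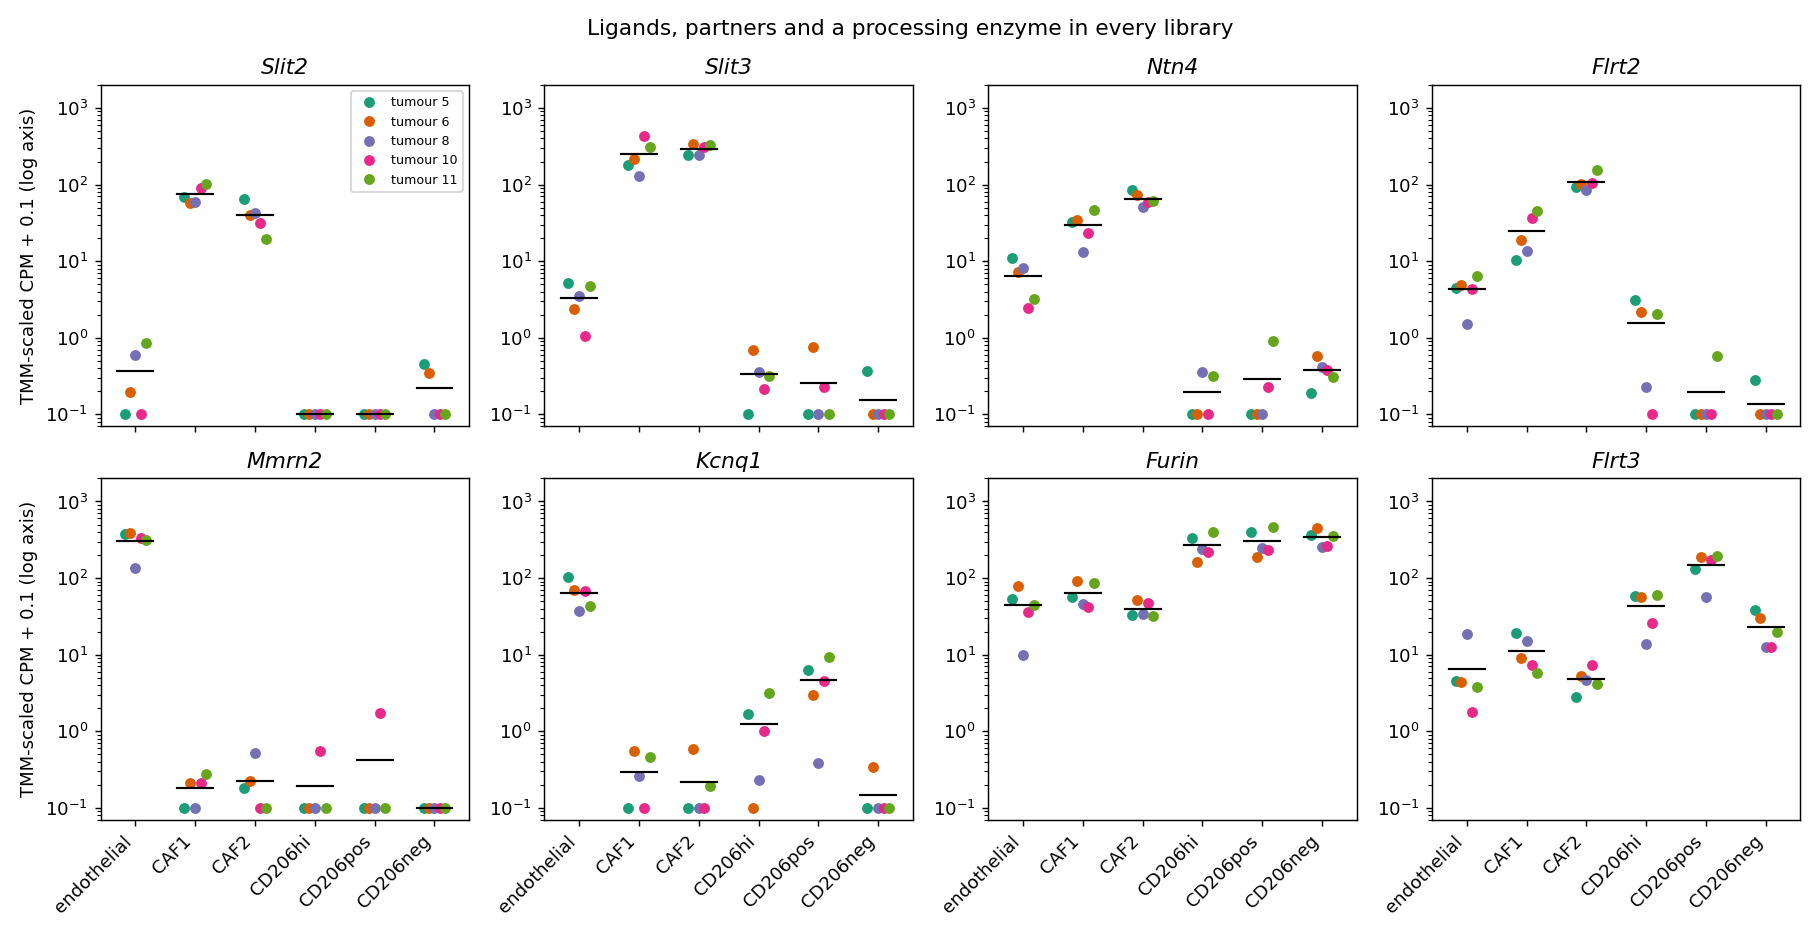
TMM-scaled CPM plus 0.1, on a log axis, of 8 ligands, partners and processing genes in the 6 sorted populations; each point is 1 library coloured by tumour, the bar is the mean of 5 libraries, and points at 0.1 have no count. Slit2 and Slit3 are high in CAF1 and CAF2, Mmrn2 and Kcnq1 in endothelial cells, and Furin and Flrt3 in macrophages.

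Of 24 other genes of the tip programme, 21 were higher in endothelial cells than in CAF1, 21 than in CAF2 and 21 than in macrophages, with median log2 fold changes of 3.54, 5.33 and 7.68, where 15.9, 23.7 and 36.5% of all genes were called higher. Without the endothelial library of tumour 8 these counts were 22, 21 and 21. The list was chosen with earlier results of these data known, so these counts are a description. Sox17 had no library above 3 counts outside endothelial cells and was tested only through the endothelial libraries. Dll4 and Flt4 also passed the filter on low counts in neither the fibroblast nor the macrophage fit. The largest changes were those of Sox17, Dll4, Kdr and Flt4 against CAF1, Dll4, Sox17, Mcam and Pdgfb against CAF2, and Igfbp3, Sox17, Dll4 and Aqp1 against macrophages. That order is not firm, since Sox17 and Flt4 had no CAF1 or macrophage library above 3 counts, and Dll4, Pdgfb and Sox17 no CAF2 library, so that their fitted values depend on the prior count. For Dll4 the log2 fold change against CAF1 was 9.47 ± 0.66. Dll4 averaged 277 ± 113 CPM, Kdr, the main receptor of vascular endothelial growth factor, 338 ± 102 CPM, and Angpt2, a vessel-destabilising ligand, 249 ± 163 CPM in endothelial cells (SD, n = 5). Their highest values in any library of another population were 1.48, 9.58 and 73.5 CPM. Adm, the vasoactive peptide adrenomedullin, was lower in endothelial cells than in CAF1 (-1.59 ± 0.50, edgeR adjusted p = 0.0131) and CAF2 (-3.44 ± 0.54, 4.62e-06), at 66.6 ± 23.2 CPM against 201 ± 151 and 723 ± 346 CPM. Plaur, the urokinase receptor, was lower than in macrophages (-1.90 ± 0.33, 9.32e-06), where Pdgfb and Cxcr4 did not pass. Pgf and Col4a1 did not pass against CAF1, nor Cd34 and Lama4 against CAF2.

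The genes whose log2 levels followed each member most closely over the 30 libraries are given by Pearson's r, a description of shared position across the sorted populations, since the libraries of a population share its identity. Robo4 was followed by Ushbp1, AU021092 and Myct1, with r at most 0.998, and Esm1 by Lrrc3b, Mapk15 and Mecom (at most 0.987). Apln was followed by Ppm1j, Plvap and Ptprb (at most 0.971) and Aplnr by Adgrl4, Cd300lg and Kank3 (at most 0.972). Egfl7 was followed by Gimap1, Gimap5 and Notch4 (at most 0.985), Kcne3 by Gpihbp1, Ccm2l and C1qtnf9 (at most 0.982), and Plvap by Adcy4, Ldb2 and Caskin2 (at most 0.981). Unc5b was followed by Rflna, Mpp2 and Ajuba (at most 0.968), and Cd93 by Hip1, Prkch and Pik3r6 (at most 0.970).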

How the data were processed

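Per the labels' protocols, cells freed by collagenase I with DNase were sorted, and cDNA from a SMARTseq v4 kit went into an Ovation Ultralow V2 kit. Trimmomatic 0.36, HISAT2 2.0.4, SAMtools 1.3.1, DESeq2 1.26 and build mm10 are listed in the submitters' processing notes; for the counter, annotation and strand handling, the tool and settings were not given in the sources used here. Deposited raw values are counts of reads per Entrez gene, with 6292411 to 11957076 counts per library and 11514 to 13756 genes detected. A second deposited table holds the authors' normalised values, a linear signal equal to each count over a factor of its library (checked: largest relative spread 5.4e-10 over genes of at least 100 counts). The matrix holds only genes of at least 72 counts in all. A count of 3, the floor used, is 0.168 to 0.726 TMM-scaled CPM in single libraries and covers counting error only. A symbol was found for 14104 of 14118 genes; coordinates and sequences are from RefSeq, GRCm38.p6.

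Tests used R 4.3.3 and edgeR 4.0.16: filterByExpr, TMM factors and the quasi-likelihood F test, with a call at an adjusted p (Benjamini-Hochberg, all genes of the fit) under 0.05. Fits held all 30 libraries (13610 genes, comparisons between lineages), 10 fibroblast libraries (12149) or 15 macrophage libraries (11052). An SE is the size of the log2 fold change divided by the square root of F. Tests were also run on simulated counts of independent libraries. That setting covers neither pairing by tumour nor groups without counts, and its outcome is not given here. Limma 3.58.1 on the log2 of the authors' normalised values plus 1 and DESeq2 1.42.0 were alternatives. The populations of a tumour come from 1 mouse, so the tumour number pairs libraries: deviations from group means correlated at 0.0213 to 0.574 within tumours over all libraries, 0.0205 to 0.381 in fibroblasts and 0.111 to 0.648 in macrophages. The fits carry no block. The genes and gene lists were chosen with earlier results of these data known. The tip, partner and marker lists are described by counts. Named from the tip and partner lists are up to 4 genes per comparison and direction with the largest log2 fold changes among those called, where the higher group averaged 10 CPM or more, and for each member the 3 genes with the highest Pearson correlation. Angpt2, Ntn1 and the tip genes named as not called were chosen after their values were seen.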

Additional observations from a re-analysis of the deposited data

Results flagged for a closer look

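Of 46 groups of 5 libraries tested, 8 held a library whose gap to the nearest of the others was large for the range of the group. Chance flags about 1 in 20 groups of independent, normally distributed values. Groups at a few counts are not of that kind and the groups share tumours, so 8 of 46 is no measure of an excess. Robo4 was 88.2 CPM in the endothelial library of tumour 8, below the other 4 at 241 to 280 CPM, in the library with the lowest pan-endothelial sum. Plvap was 73.1 CPM in the CAF1 library of tumour 8, above 32.8 to 41.0 CPM in the others. Aplnr was 15.8 CPM in the CD206pos library of tumour 11, above 3.62 to 5.22 CPM.

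The other 5 are low levels in groups other than endothelial cells. Plvap was 4.36 CPM in CD206neg of tumour 6 and 2.12 CPM in CD206pos of tumour 10, Apln 1.03 CPM in CD206hi of tumour 6, Egfl7 1.74 CPM in CD206pos of tumour 6, and Kcne3 0.606 CPM in CAF2 of tumour 6. Of these, 4 are libraries of tumour 6.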

How the results depend on the processing

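The 43 member fold changes were recomputed under 1038 alternatives in all: tumour as a replicate block, RLE factors, no filter, a stricter filter, DESeq2, limma, other sets of libraries in the fit, and leaving out single libraries or tumours. Counts over the tip and partner lists without the endothelial library of tumour 8 and with the block were added after seeing the data. Direction and side of the threshold held in 986, with 41 calls lost, 1 gained and 10 directions turned, and in 682 of 684 for comparisons of endothelial cells. The 2 exceptions there were Unc5b against CAF1, which was -0.024 to 0.24 without single endothelial libraries, 0.078 to 0.29 without CAF1 libraries and -0.10 to 0.26 without whole tumours. The other turned directions were all of Kcne3, not called in macrophages: CD206hi against CD206neg gave 0.0184 with limma and 0.23 without the 2 CD206neg libraries of tumours 6 and 8. It gave -0.49 to 0.100 without single CD206hi libraries, -0.47 to 0.059 without CD206neg libraries and at most 0.20 without whole tumours. Kcne3 in CD206pos against CD206neg was -0.0118 to 1.01 without CD206pos libraries, and in CD206hi against CD206pos -1.49 to 0.0907 without whole tumours.

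Counts of genes called between macrophage groups moved most. CD206hi against CD206neg called 1110 genes, 1791 with tumour as a replicate block, 545 without the 2 CD206neg libraries, 747 to 1164 without CD206hi libraries, 791 to 985 without CD206neg libraries and 535 to 1084 without whole tumours (652 without tumour 6). CD206pos against CD206neg called 1625 genes, 2800 with the block, 930 without the 2 libraries, 1109 to 1432 without CD206neg libraries, 1242 to 2070 without CD206pos libraries and 765 to 1744 without whole tumours (1074, 1064 and 818 without tumours 5, 6 and 11). CD206hi against CD206pos called 21 genes, 97 with the block, 83 by DESeq2, 36 in the fit of all 30 libraries, 8 to 13 without CD206hi libraries, 5 to 48 without CD206pos libraries and 0 to 30 without whole tumours. The counts of 0 by edgeR came without tumour 6, 10 or 11, where 723, 437 and 609 genes had an unadjusted p below 0.05. The block changed no other member call than that of Apln between CAF1 and CAF2. The causes were not tested. Members at a few counts in fibroblasts and macrophages are limited by depth, since 3 counts in 1 of these libraries reach up to 0.726 TMM-scaled CPM.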
